A study of Mus musculus with 14 samples.

Results

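Nuclear receptors are transcription factors whose activity is set by small fat-soluble molecules such as hormones, vitamins, sterols and foreign chemicals, or that act as orphan receptors with no established ligand. Transcripts of 45 nuclear receptor genes were followed through mouse small intestine, out of 36401 genes in the deposited files. They were chosen by name: a list of receptor symbols plus every symbol of the systematic form (Nr1h5 was added by that form), with Nr1h4 and Nr0b2 set aside. The rule itself uses no measured value, but the set was proposed with earlier results of these data known. Of the 45 genes, 37 had enough counts to be tested, and 8 did not (Rxrg, Nr1h5, Rorb, Nr2e1, Nr2f1, Esr2, Nr5a1 and Nr0b1).

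The libraries came from ileum (taken 5 to 8 cm from the cecum) and jejunum (5 to 8 cm from the pylorus) of C57Bl6 mice, labelled male and 6 to 12 weeks old, with no genetic change or treatment named. Each region gave 3 libraries of crypt cells, 2 of LGR5 cells (LGR5 is a surface receptor known as a mark of crypt base stem cells) and 2 of CD44+/CD24lo/CD166+ cells, called CD166 cells here. That makes 14 libraries in 6 groups. Tissue was digested mechanically and with enzymes, and sorted cells were lysed for RNA at collection, though the labels also carry a culture protocol. The labels call every population stem cells, and do not say how LGR5 cells were recognised or whether any library came from a mouse of its own. The p-values therefore measure spread between these libraries, which may be technical.

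Several libraries stood apart. Total counts ran from 6295828 to 20380369. The library labelled ileum crypt 3 resembled jejunum crypt 1 more than any other pair did, with 16.9% of genes differing beyond counting noise against 36.6% in the next closest of 91 pairs. It held 25.8 CPM (counts scaled to the normalised library total) of Fabp6, a bile acid binding protein known from ileum, where ileum crypt 1 and 2 had 2688 and 1987 CPM. Region counts over the 3 populations and within crypt are given with and without it, other region results mostly with it only. This library was singled out by its likeness to jejunum, so leaving it out favours larger regional differences. Ileum crypt 1 and jejunum crypt 2 held 1675 and 1310 CPM of the female transcript Xist and at most 0.18 CPM of each of 4 Y-linked genes, against their male label. All 8 sorted libraries held both Xist (201 to 1361 CPM) and Y-linked transcripts such as Ddx3y (4.59 to 35.2 CPM). Summed over 11 lymphocyte genes, jejunum crypt 2 held 12120 CPM and ileum crypt 1 held 3546 CPM, the other crypt libraries 134 to 993 CPM and the sorted libraries 8.28 to 44.4 CPM. Summed over 10 enterocyte genes, the crypt libraries held 6332 to 50440 CPM and the sorted libraries 721 to 2343 CPM, while all 10 stem cell markers were higher in both sorted populations than in crypt. Cd44 stood at 36.0 to 67.5 CPM in crypt and 115 to 233 CPM in sorted libraries, while Alcam, the gene of CD166, overlapped between crypt (29.5 to 51.1 CPM) and sorted libraries (38.4 to 50.6 CPM). Cd24a was higher in the CD166 libraries (734.5 to 1207 CPM), sorted as low in CD24, than in crypt (137 to 597 CPM). In such bulk samples fewer cells of a type and less RNA per cell cannot be told apart.

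As background, most receptors of the thyroid, retinoid, vitamin D, PPAR, LXR and xenobiotic branches bind DNA in a pair with a retinoid X receptor. Steroid receptors bind as pairs of their own kind. In the intestine HNF4 factors are known as drivers of the absorptive programme, and the vitamin D receptor of calcium uptake. PXR (Nr1i2) and CAR (Nr1i3) are known as drivers of drug metabolism, LXRs of sterol export, and Ppara and Ppard of fat burning. The NR4A receptors have no classical ligand pocket and are known as immediate early genes, switched on within a short time of a stimulus through cAMP response elements in their promoters, as Fos is. Rarb is known as a direct target of retinoic acid through an element just before its start.

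The promoters of the NR4A genes and Rarb are shown, the genes named above as having a known promoter element. Each of these 4 genes was called in at least 1 comparison below, but so were other members whose promoters are not printed. They come from RefSeq for the GRCm38.p6 build, which holds entries for 41 of the 45 members, run 5′ to 3′ and end at the base before the annotated start. In the first 3, capitals mark TGACG, the core of a cAMP response element, or its reverse complement CGTCA. In Rarb they mark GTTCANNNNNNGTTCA, a direct repeat of the retinoic acid response element kind.
Nr4a1, chr15:101266603-101266845, plus strand: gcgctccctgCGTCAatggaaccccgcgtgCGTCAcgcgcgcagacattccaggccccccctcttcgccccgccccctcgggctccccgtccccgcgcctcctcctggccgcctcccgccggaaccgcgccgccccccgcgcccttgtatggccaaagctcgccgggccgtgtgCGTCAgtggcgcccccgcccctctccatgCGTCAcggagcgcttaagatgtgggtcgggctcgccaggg
Nr4a2, chr2:57124004-57124213, minus strand: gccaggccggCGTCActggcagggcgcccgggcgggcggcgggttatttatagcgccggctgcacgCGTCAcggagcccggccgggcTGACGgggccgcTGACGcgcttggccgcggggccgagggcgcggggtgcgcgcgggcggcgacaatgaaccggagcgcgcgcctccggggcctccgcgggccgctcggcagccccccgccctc
Nr4a3, chr4:48045064-48045304, plus strand: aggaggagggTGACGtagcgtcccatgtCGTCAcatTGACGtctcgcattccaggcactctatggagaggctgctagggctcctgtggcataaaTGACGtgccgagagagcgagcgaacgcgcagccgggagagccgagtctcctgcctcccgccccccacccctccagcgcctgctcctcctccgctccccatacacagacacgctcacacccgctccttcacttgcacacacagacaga
Rarb, chr14:16575477-16575626, minus strand: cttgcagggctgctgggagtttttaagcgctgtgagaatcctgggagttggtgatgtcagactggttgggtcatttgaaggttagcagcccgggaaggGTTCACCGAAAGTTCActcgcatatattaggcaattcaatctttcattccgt

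Each NR4A promoter held 4 matches to TGACG on either strand within 250 bases before the start, from 233 to 36 bases before it in Nr4a1, from 200 to 107 in Nr4a2 and from 231 to 143 in Nr4a3. Of 32851 promoters of the same length, 17.8% held at least 1 match and 0.137% held 4 or more. The cut at 4 equals the number seen in these promoters, so the second share is no test. The full palindrome TGACGTCA, which contains a TGACG match on each strand, was in 1.55% of promoters and in none of the 3. The Rarb repeat lay 52 to 37 bases before the start, and 0.067% of promoters (22) held it. This repeat was not among the motifs planned at first and has the form of the element known for Rarb, so its share is no test either. The receptor core motif AGGTCA (14% of promoters) occurred once before Nr1d2 and not before Nr1d1 or Hnf4a, and the E-box CACGTG (6.02%) before none of these. A match is only a description of the letters, and the RNA data hold no measure of binding.

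Levels between genes were compared per kilobase of exon (GENCODE vM21). Averaged over the 6 group means, Hnf4a led with 205 CPM per kb, followed by the vitamin D receptor Vdr (112.5), Hnf4g (83.5), the estrogen-related receptor Esrra (42.0), Nr1i2 (29.3) and the LXR gene Nr1h2 (25.1). Below these lay Ppard (22.7), Thra (22.6), the glucocorticoid receptor Nr3c1 (22.2), Nr2f6 (22.1), Rxra (19.8) and Rxrb (18.7 CPM per kb), close to each other. The order differed between groups: in crypt Hnf4g (137 CPM per kb in ileum and 186.7 in jejunum) lay above Vdr (100.6 and 99.1), and in jejunum crypt it was level with Hnf4a (187.6 CPM per kb). Of the 45 genes, 21 exceeded 10 CPM in every library, and 15 stayed under 10 CPM in every library. The 8 genes that were not tested reached 0.899 CPM at most (Nr2f1 in jejunum crypt 2), and Nr0b1 had no count in any library.

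**Figure D1:**
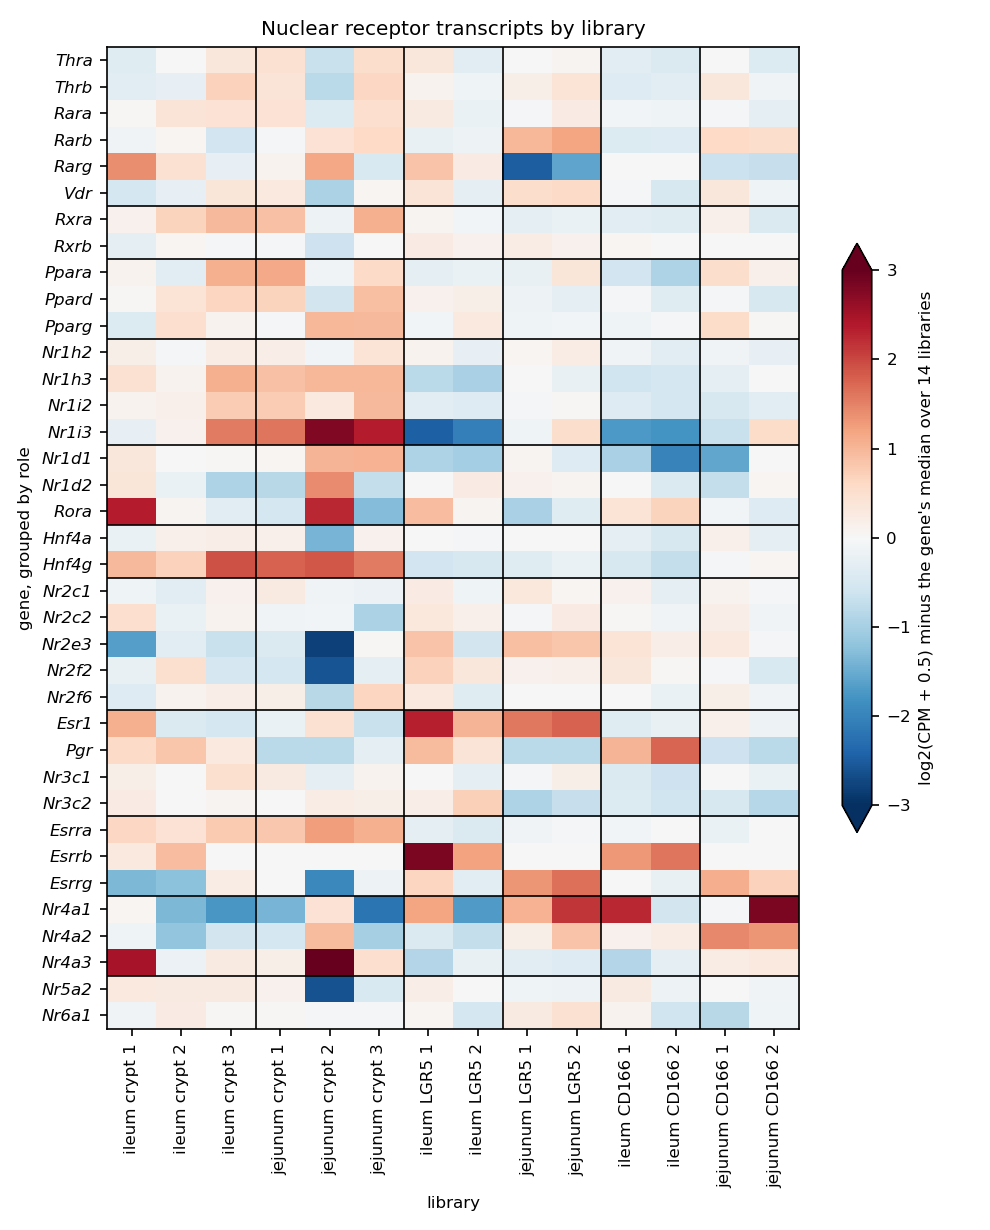
Each row is 1 of the 37 tested receptor genes and each column 1 of the 14 libraries; colour gives log2(CPM + 0.5) minus the gene's median over the libraries, with black lines between roles and groups. Hnf4g and Nr1i3 are red mainly in crypt columns, and jejunum crypt 2 is low in Nr5a2, Nr2f2 and Nr2e3.

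Against crypt cells, LGR5 cells had less RNA of Hnf4g, Nr1i2, Nr1i3, Nr1h3, Rxra, Esrra, Rarg, Nr1d1 and Nr4a3, and more of Esrrg, Esr1 and Nr2e3. In edgeR's quasi-likelihood test, adjusted by Benjamini-Hochberg over 14750 genes and called at an adjusted p under 0.05, 12 of 37 tested members were called: 3 higher and 9 lower. Among these, Esr1 and Nr4a3 passed the count filter through the side where they are high. Over all genes 31.5% were called in this comparison, so the members' count is close to the background. Their median log2 fold change was -0.08, against -0.01 over all genes. In CD166 cells against crypt 11 of 37 were called, 2 higher and 9 lower, against 30.1% of all genes, with a median of -0.35 against 0.02. Both comparisons use the same 6 crypt libraries and are not independent. The same shares over all genes are the background for the smaller groups and gene lists below. Leaving out each library in turn, 5 of the 12 calls in LGR5 cells and 7 of the 11 in CD166 cells held every time: Nr1h3, Nr1i2, Nr1i3, Hnf4g and Esrra in both, with Nr1d1 and Nr3c2 in CD166 cells.

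**Figure D2:**
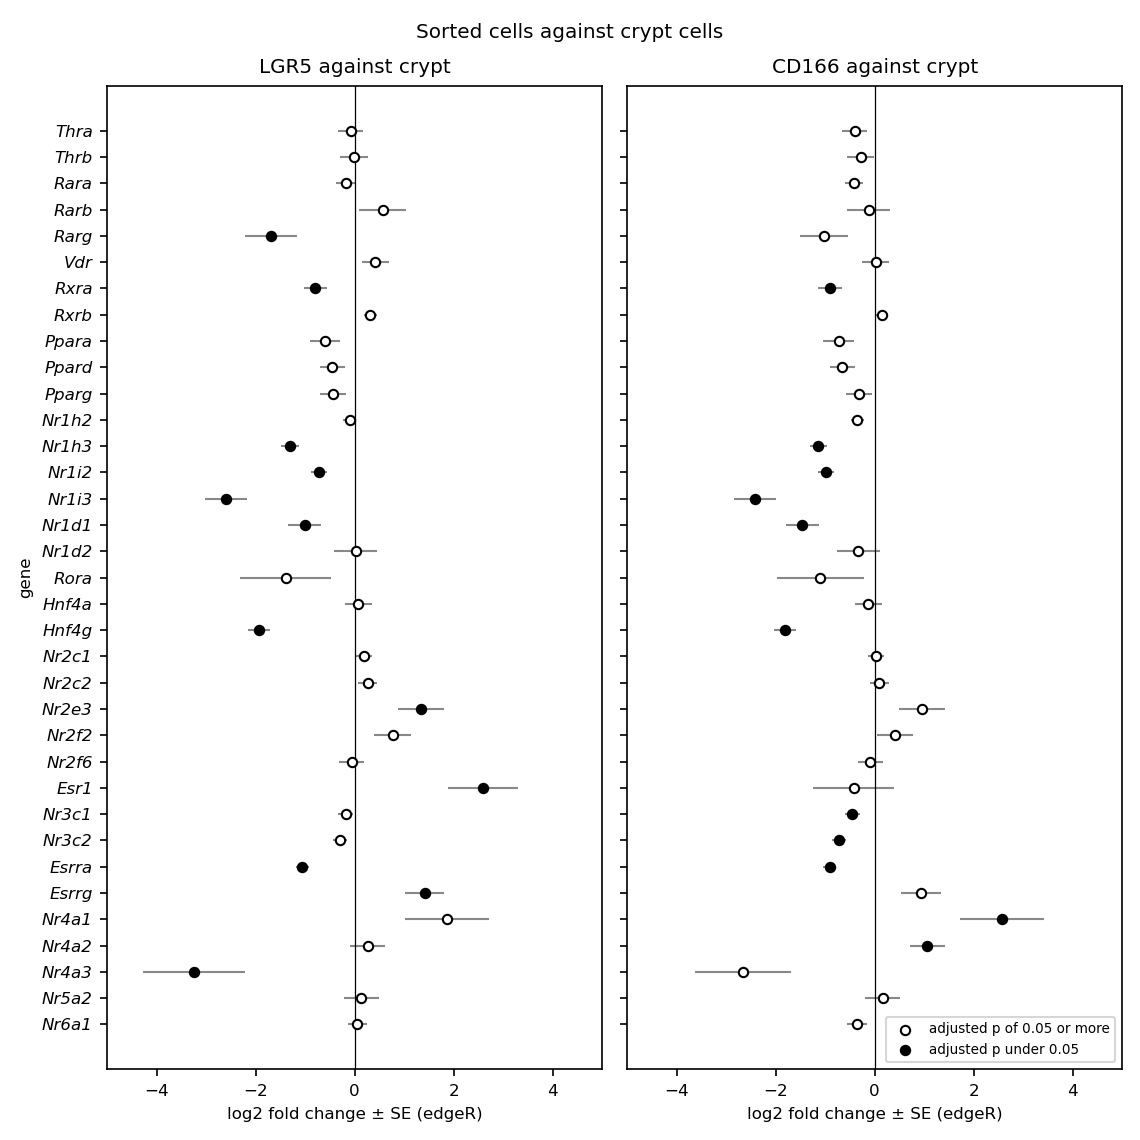
Points give the log2 fold change of LGR5 (left) and CD166 cells (right) over crypt cells for 35 tested receptor genes, bars the SE and filled points an adjusted p under 0.05; Pgr and Esrrb, nearly absent in jejunum, are left out. Nr1i3 and Hnf4g lie far to the left in both panels while Hnf4a lies near 0.

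Of the HNF4 pair, Hnf4g fell in both sorted populations and Hnf4a did not pass the test. The difference between the 2 genes was not tested. Hnf4g had 289.7, 237.7 and 553 CPM in the crypt libraries of ileum and 501, 537 and 435 CPM in those of jejunum. LGR5 libraries held 97.9 and 104 CPM (ileum) and 114 and 127 CPM (jejunum), and CD166 libraries 105 and 89.9 CPM (ileum) and 142 and 152 CPM (jejunum). Every sorted library lay below every crypt library. The fall was 3.80-fold in LGR5 cells (log2 -1.93 ± 0.23 SE, adjusted p = 0.00018) and 3.51-fold in CD166 cells (-1.81 ± 0.22, adjusted p = 0.000276, edgeR). Hnf4a, its close relative, ranged over 398 to 1206 CPM in crypt and 758 to 1163 CPM in sorted libraries, which overlap, and did not pass the test (log2 0.08 ± 0.27 and -0.13 ± 0.27). Per kb, Hnf4g stood at 0.374 to 2.48 times Hnf4a in the 6 crypt libraries and 0.171 to 0.321 times in the 8 sorted ones. The highest ratio belongs to jejunum crypt 2, where Hnf4a was lowest. Of 17 tested genes known as HNF4 targets, 14 were lower in LGR5 and 15 in CD166 cells, with medians of -2.77 and -2.73. They were led by Apoa4 (log2 -6.67 and -5.96), Fabp2 (-3.87 and -3.55), Apoa1 (-5.46 and -4.82) and Sis (-4.56 and -3.44), and several are enterocyte markers that fell with that whole list. The part of enterocyte content in the difference was not tested.

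**Figure D3:**
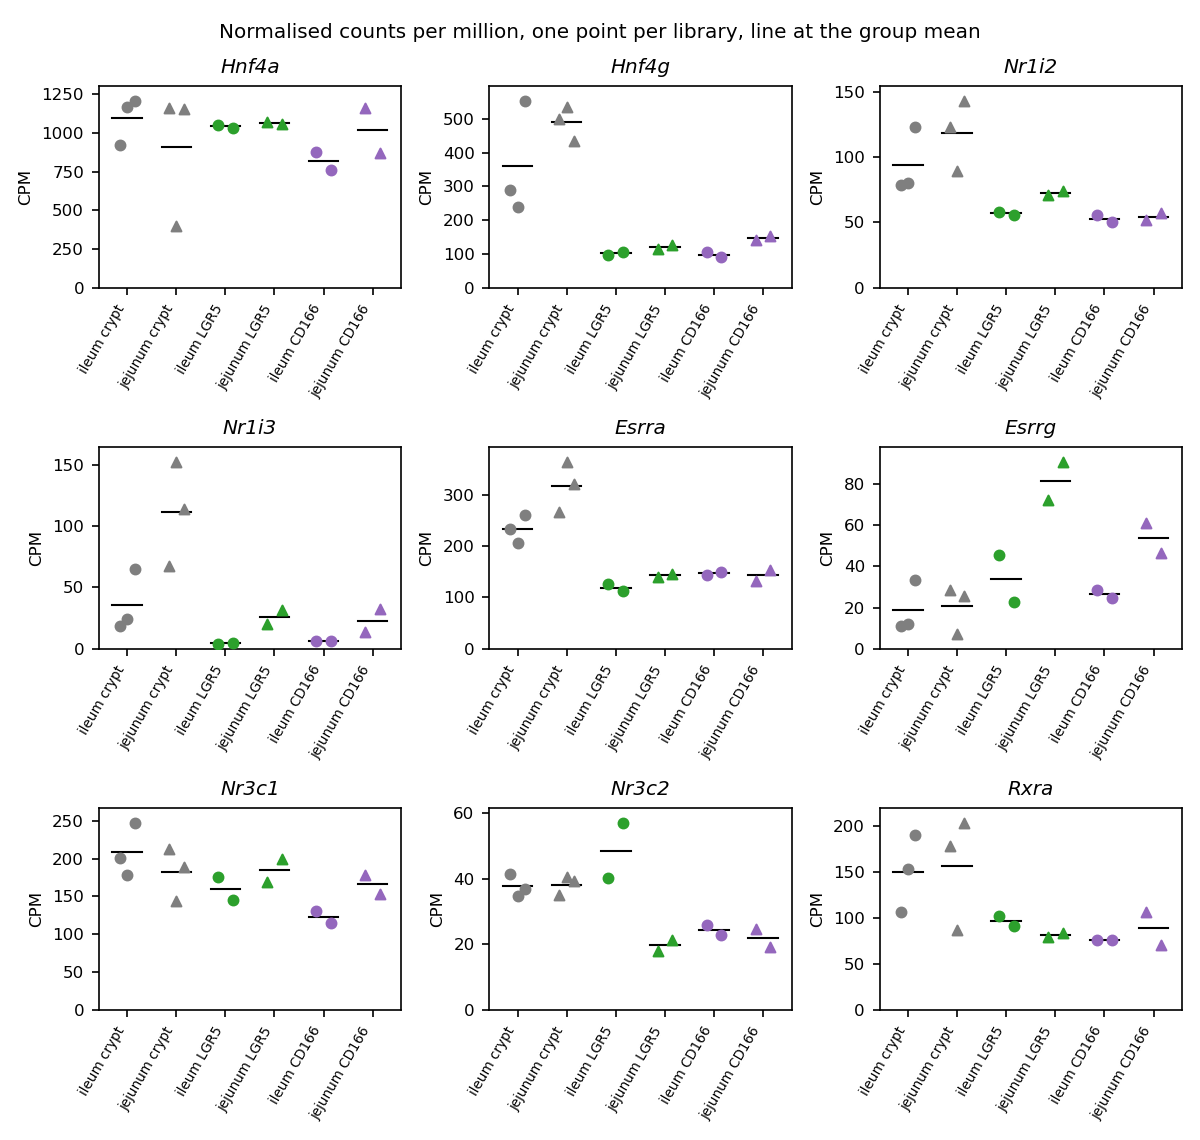
Panels give CPM of 9 receptor genes from 0 on a linear axis; each point is a library (circles ileum, triangles jejunum) and each line a group mean, with grey for crypt, green for LGR5 and purple for CD166 cells. Hnf4g, Nr1i2 and Esrra separate crypt from sorted libraries with no overlap, and Nr3c2 in LGR5 cells separates ileum from jejunum.

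Among the xenobiotic and sterol sensors 3 of 4 tested members were called lower in each sorted population. Over all genes 18.5% were called lower in LGR5 and 16.5% in CD166 cells. The group is small and was not tested as a set. CAR (Nr1i3) stood at 18.3, 24.0 and 65.1 CPM in ileal and 67.3, 152 and 114 CPM in jejunal crypt. LGR5 cells held 3.61 and 4.87 CPM (ileum) and 19.9 and 31.5 CPM (jejunum), CD166 cells 6.29 and 5.91 CPM (ileum) and 13.7 and 32.1 CPM (jejunum). Within each region every sorted library lay below every crypt library, though jejunal sorted and ileal crypt libraries overlapped. The difference was 6.07-fold in LGR5 (log2 -2.60 ± 0.43, adjusted p = 0.00144) and 5.34-fold in CD166 cells (-2.42 ± 0.42, adjusted p = 0.00184, edgeR). Most of the Nr1i3 exon sequence overlaps exons of Tomm40l on the other strand. Tomm40l differed by 0.01 ± 0.16 and 0.27 ± 0.16 in these comparisons (adjusted p = 0.959 and 0.214). PXR (Nr1i2) ranged over 78.4 to 143 CPM in crypt, 55.9 to 74.3 in LGR5 and 49.9 to 56.9 CPM in CD166 libraries. These ranges do not overlap crypt, and the falls were smaller (log2 -0.72 ± 0.16, adjusted p = 0.00798, and -0.98 ± 0.17, adjusted p = 0.00159). Of 13 genes known as PXR and CAR targets, 12 were lower in each sorted population, with medians of -3.20 and -3.13. Cyp3a11, a main drug-oxidising enzyme, changed by -6.68 and -6.04 on the log2 scale, Cyp3a13 by -4.76 and -4.20, Ces2a by -3.14 and -3.13 and Ugt1a1 by -1.86 and -1.79. Reads of Cyp and Ces genes may be shared among near-identical copies.

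Of the LXR pair, sensors of oxidised cholesterol, Nr1h3 was called in both sorted populations. Nr1h3 (LXR alpha) ranged over 30.2 to 58.9 CPM in crypt, 14.1 to 27.7 in LGR5 and 18.4 to 28.3 CPM in CD166 libraries, without overlap with crypt. It fell 2.47-fold (log2 -1.30 ± 0.18, adjusted p = 0.000446) and 2.20-fold (-1.14 ± 0.17, adjusted p = 0.000935). Nr1h2 (LXR beta) stood at 78.5 to 110.5 CPM in crypt, 70.4 to 97.6 in LGR5 and 65.8 to 77.9 CPM in CD166 libraries, the last below all crypt libraries, and did not pass (log2 -0.10 ± 0.13 and -0.35 ± 0.13, adjusted p = 0.567 and 0.0659). In CD166 cells Nr1h2 was called lower by DESeq2, with DESeq2 size factors, and without ileum crypt 2 or jejunum crypt 2. The difference between Nr1h3 and Nr1h2 was not tested. Over all genes 31.5% and 30.1% were called in LGR5 and CD166 cells against crypt. Of 11 tested LXR targets, 5 were lower in LGR5 and 4 in CD166 cells and none was higher (6 and 5 had an unadjusted p under 0.05, edgeR). Among them were the sterol exporters Abcg5 (log2 -2.06 and -2.34) and Abcg8 (-1.44 and -2.06) and the phospholipid enzyme Lpcat3 (-1.40 and -1.36).

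Rxra, the shared partner, stood at 106, 154 and 190.5 CPM in ileum crypt and 179, 87.4 and 204 in jejunum crypt, and ranged over 79.1 to 102 in LGR5 and 70.9 to 107 CPM in CD166 libraries. Jejunum crypt 2 lay inside the LGR5 range, and it and ileum crypt 1 inside the CD166 range. Rxra fell 1.73-fold in LGR5 (log2 -0.79 ± 0.24, adjusted p = 0.0292) and 1.87-fold in CD166 cells (-0.91 ± 0.24, adjusted p = 0.0165). The LGR5 call was lost without ileum crypt 3, jejunum crypt 3 or any of the 4 LGR5 libraries (adjusted p 0.0546 to 0.0987), and the CD166 call without either ileum CD166 library or jejunum CD166 2 (0.0577 to 0.0801). Rxrb had means of 66.5 CPM in crypt, 83.1 in LGR5 and 73.4 CPM in CD166 cells, and its LGR5 libraries all lay above crypt, but it did not pass (log2 0.32 ± 0.13 in LGR5 cells, adjusted p = 0.0863). Rxrg, known from muscle and brain, had counts in 1 library only, at 0.0744 CPM. Of the PPARs, Ppara and Ppard are known to switch on fatty acid oxidation. They ranged over 13.8 to 38.7 and 109.5 to 297 CPM in crypt. In sorted libraries they ranged over 8.99 to 25.5 and 114 to 181 CPM. None of the 3 PPAR genes was called in either comparison (0 and 2 had an unadjusted p under 0.05, edgeR). In CD166 cells DESeq2 called Ppard lower, and Ppara was called lower without ileum crypt 2 or jejunum crypt 2. Without jejunum crypt 2, Ppard was called in both (log2 -0.63 ± 0.15, adjusted p = 0.00788, and -0.85 ± 0.15, adjusted p = 0.00168). Of 21 tested PPAR targets 12 were lower in each, including the fatty acid binding proteins Fabp2 and Fabp1 (log2 -4.93 and -5.02 for Fabp1) and Acadm, an enzyme of mitochondrial fatty acid oxidation (-0.84 and -0.75).

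With all 14 libraries, the receptors of thyroid hormone and of vitamins A and D had 1 call among 6 tested members, Rarg in LGR5 cells. Vdr ranged over 311 to 778 CPM in crypt, 503 to 896 in LGR5 and 430 to 762 CPM in CD166 libraries (log2 0.42 ± 0.27 and 0.03 ± 0.27). Of 6 tested vitamin D targets the tight junction gene Cldn12 was higher (0.57 in both) and the manganese exporter Slc30a10 lower (-4.81 and -4.29). Thra and Thrb did not pass either (log2 -0.08 and -0.01 in LGR5, -0.41 and -0.28 in CD166 cells). In CD166 cells Thra was called lower without jejunum crypt 2, and so was Thrb when ileum crypt 1 was left out too. Of 6 tested thyroid hormone genes, 2 were higher in both, among them Klf9 (log2 0.63 and 0.47), and the deiodinase Dio1 (-1.34 and -1.26) and the malic enzyme Me1 (-2.19 in CD166 cells) lower in both. Slc16a10 was called lower in CD166 cells (-1.12). Rara, the most abundant retinoic acid receptor, had means of 43.5, 38.4 and 32.7 CPM in crypt, LGR5 and CD166 cells. It was called lower in CD166 cells without jejunum crypt 2, and in both sorted populations without ileum crypt 1 and jejunum crypt 2 together. In the retinoid pathway, 4 of 11 tested genes were lower in each comparison and none higher, close to the 31.5% and 30.1% of all genes called. They were the retinol carrier Rbp2 (-5.67 and -3.88), the retinal oxidising enzyme Aldh1a1 (-4.68 and -4.22), Dgat1 (-2.42 and -2.46) and the retinol dehydrogenase Rdh7 (-3.85 and -3.44). Unadjusted, 5 and 8 genes of that list had a p under 0.05.

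Rarg, called lower in LGR5 cells (log2 -1.70 ± 0.52, adjusted p = 0.0307), was highest in the lymphocyte-rich libraries ileum crypt 1 (8.56 CPM) and jejunum crypt 2 (7.19 CPM). The other crypt libraries held 2.02 to 4.22 CPM, and the LGR5 libraries 5.70 and 3.56 in ileum and 0.119 and 0.655 CPM in jejunum. Without ileum crypt 1 and jejunum crypt 2 the difference was -1.06 (adjusted p = 0.0616), and the call was also lost without ileum crypt 1 alone, either ileum LGR5 library or jejunum LGR5 1 (0.0593 to 0.111). Rora was also highest in these libraries (9.23 and 8.63 CPM against 0.273 to 1.51 in other crypt libraries) and did not pass.

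The estrogen-related receptors, which resemble estrogen receptors and drive mitochondrial genes without a known natural ligand, differed in direction in LGR5 cells. Esrra stood at 206 to 365 CPM in crypt, 113 to 146 in LGR5 and 133 to 154 CPM in CD166 libraries, without overlap with crypt. The fall was 2.09-fold in LGR5 (log2 -1.06 ± 0.13, adjusted p = 0.000223) and 1.88-fold in CD166 cells (-0.91 ± 0.13, adjusted p = 0.000589). Esrrg had 10.9, 11.9 and 33.4 CPM in ileal and 28.6, 7.19 and 25.7 CPM in jejunal crypt. LGR5 cells had 45.4 and 22.7 CPM (ileum) and 72.3 and 90.9 CPM (jejunum), CD166 cells 28.7 and 24.6 CPM (ileum) and 61.2 and 46.7 CPM (jejunum). The jejunal sorted libraries lay above all crypt libraries, and the ileal ones mostly among them. Esrrg was 2.67-fold higher in LGR5 cells (log2 1.41 ± 0.40, adjusted p = 0.0202), a call lost without ileum LGR5 1 (adjusted p = 0.113) or either jejunum LGR5 library (0.0512 and 0.0842). The same comparison in CD166 cells gave 0.94 ± 0.40 (adjusted p = 0.0947), which passed only without ileum crypt 3 (1.30 ± 0.35, adjusted p = 0.0227) among the libraries left out one by one. Per kb, Esrrg stood at 0.0139 to 0.0901 times Esrra in crypt and 0.116 to 0.441 times in sorted libraries. Among 21 tested coregulators, Ppargc1a, the coactivator that works with these receptors, fell (log2 -1.15 ± 0.25 and -1.88 ± 0.25, adjusted p = 0.00582 and 0.000476). Ncoa4 fell too (-0.75 and -1.03), and the methyltransferase Prmt1 rose (0.63 and 0.85). In LGR5 cells 4 coregulators were higher and 2 lower, and in CD166 cells 1 was higher and 3 lower. Over all genes 31.5% and 30.1% were called in these comparisons, so neither count stands above the background.

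Steroid receptors were led by Nr3c1, the glucocorticoid receptor, at 144 to 247 CPM in crypt, 145 to 199 in LGR5 and 115 to 178 CPM in CD166 libraries. It was called lower in CD166 cells by a small margin (1.37-fold, log2 -0.45 ± 0.15, adjusted p = 0.0404), a call lost without any 1 library other than ileum crypt 2, jejunum crypt 2, the ileum LGR5 libraries and jejunum LGR5 2 (adjusted p 0.052 to 0.149). Nr3c2, the mineralocorticoid receptor, fell 1.64-fold in CD166 cells (log2 -0.72 ± 0.14, adjusted p = 0.0034), with 34.6 to 41.3 CPM in crypt against 19.02 to 26.0 CPM. Of 12 tested corticosteroid targets, Ddit4 (log2 1.13 and 0.76), Klf9 and Per1 (0.68 and 0.46) were higher in both sorted populations. Sgk1 was lower in both (-1.09 and -1.84), Hsd11b1 in LGR5 cells (-3.33) and Tsc22d3 in CD166 cells (-0.83). Esr1, estrogen receptor alpha, was a low transcript with 3.95, 1.29, 2.15 and 2.54 CPM in the 4 LGR5 libraries, against 0.0545 to 1.37 in crypt and 0.185 to 0.482 CPM in CD166 libraries. It was 6.05-fold higher in LGR5 than in crypt cells (log2 2.60 ± 0.71, adjusted p = 0.0187). Outside the LGR5 libraries only ileum crypt 1 reached the level of the count filter. Esr1 was therefore tested through the group where it is high, and its adjusted p adds little to the counts. The LGR5 range overlaps crypt only through ileum crypt 1. The call was lost without ileum LGR5 1 (2.07, adjusted p = 0.103) or either jejunum LGR5 library (0.0501 and 0.0654). Nr2e3, known from photoreceptors, stood at 1.62 to 14.6 CPM in crypt and 9.60 to 27.0 CPM in LGR5 libraries (log2 1.34 ± 0.46, adjusted p = 0.0469). This call held only without jejunum crypt 2, jejunum crypt 3 or ileum LGR5 2 among the libraries left out in turn, and without ileum LGR5 1 the difference was 0.89 (adjusted p = 0.252).

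Of the NR4A receptors, Nr4a1 and Nr4a2 were called higher in CD166 cells and Nr4a3 lower in LGR5 cells. Nr4a1 (Nur77) had 9.12, 3.17 and 2.29 CPM in ileal and 3.03, 12.0 and 1.53 CPM in jejunal crypt. LGR5 cells had 20.5 and 2.37 CPM (ileum) and 18.7 and 40.3 CPM (jejunum), CD166 cells 43.8 and 5.87 CPM (ileum) and 8.47 and 65.2 CPM (jejunum). Within each CD166 group 1 library lay far above the other, and the lower of each fell inside the crypt range. Its difference over crypt was 5.98-fold in CD166 cells (log2 2.58 ± 0.84, adjusted p = 0.0393) and 1.87 ± 0.84 in LGR5 cells (adjusted p = 0.113). Without ileum CD166 1 the former was 1.52 (adjusted p = 0.239), and without jejunum CD166 2 it was 1.5 (adjusted p = 0.246). It was also lost without ileum crypt 2, ileum crypt 3, jejunum crypt 1, jejunum crypt 3 or either jejunum LGR5 library (0.0545 to 0.0809). Nr4a2 (Nurr1) ranged over 6.00 to 27.8 CPM in crypt and stood at 15.7, 16.6, 39.2 and 36.2 CPM in CD166 libraries (log2 1.07 ± 0.35, adjusted p = 0.0406), a call that held only without ileum crypt 1 or jejunum crypt 2 among the libraries left out in turn (adjusted p 0.0528 to 0.104 without any other). Without jejunum crypt 2, its highest crypt library, the difference was 1.44 ± 0.22 (adjusted p = 0.000709), and Nr4a2 was then also called in LGR5 cells (0.65 ± 0.22, adjusted p = 0.0425).

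Nr4a3 (Nor1) was highest in the lymphocyte-rich libraries ileum crypt 1 (5.47 CPM) and jejunum crypt 2 (9.71 CPM), and lay between 0.452 and 1.04 CPM in other crypt and 0.0919 and 0.430 CPM in LGR5 libraries. The fall was called in LGR5 cells (log2 -3.24 ± 1.03, adjusted p = 0.0345). Without either lymphocyte-rich library Nr4a3 fell under the count filter and had no test, and without any 1 LGR5 library the call was lost (0.0669 to 0.132). Nr4a3 was thus tested only through the crypt libraries where it is high, and its adjusted p adds little to the counts. The CD166 libraries held 0.0923 to 0.819 CPM, which overlaps crypt. Nr4a3 was lower there too, with an unadjusted p under 0.05 but no call in edgeR with all 14 libraries. In CD166 cells it was called by DESeq2, with a replicate block, and without ileum crypt 2, jejunum crypt 1 or jejunum crypt 3. The part of lymphocyte content in either difference was not tested.

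**Figure D4:**
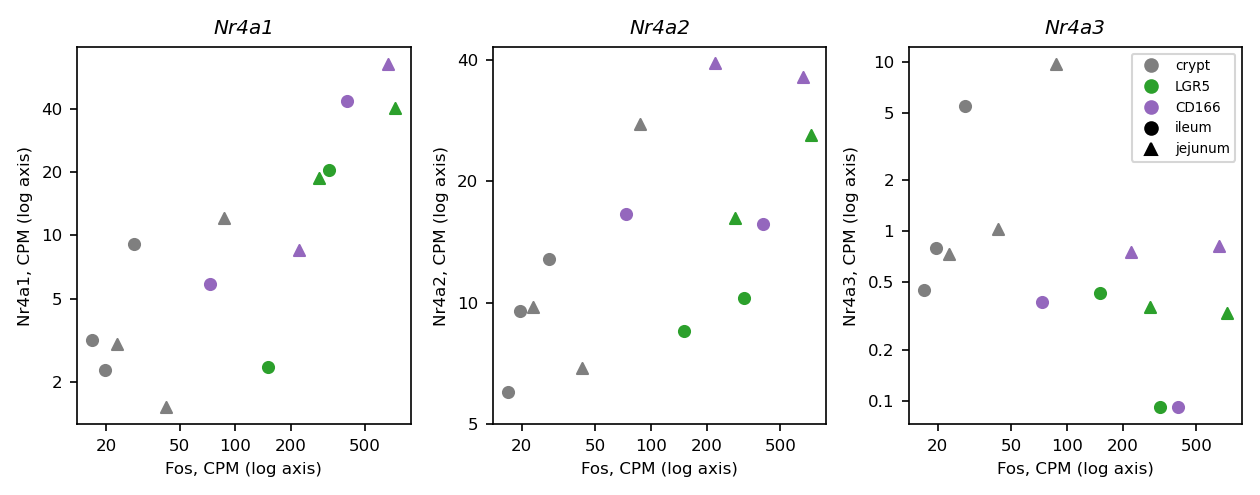
Each point is 1 of the 14 libraries, placed by CPM of Fos (horizontal) and of an NR4A gene (vertical) on log axes; grey is crypt, green LGR5 and purple CD166, with circles for ileum and triangles for jejunum. The 3 libraries with the most Nr4a1 (40.3 to 65.2 CPM) are the 3 with the most Fos (399.7 to 732 CPM), while Nr4a3 is highest in 2 crypt libraries with 28.1 and 86.8 CPM of Fos.

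Other immediate early genes were higher in sorted cells: 10 of 19 tested in LGR5 cells (0 lower) and 10 in CD166 cells (1 lower, Fosl2). Jun rose by 3.50 ± 0.46 and 3.25 ± 0.45 on the log2 scale, Fos by 3.39 and 3.29, Egr1 by 4.17 and 4.10 and Ier2 by 1.45 and 1.55. Fos stood at 16.9 to 86.8 CPM in crypt and 73.2 to 732 CPM in sorted libraries. The 3 libraries highest in Fos were the 3 highest in Nr4a1, as the plot of NR4A genes against Fos shows. Whether the Nr4a1 levels follow these genes for a shared reason was not tested.

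Of the clock receptors, Nr1d1 (REV-ERB alpha), a repressor within the circadian clock, stood at 44.0 to 91.3 CPM in crypt and 10.6 to 47.3 CPM in sorted libraries, with overlap. It was lower in LGR5 (log2 -1.01 ± 0.33, adjusted p = 0.0373; lost without ileum crypt 1 or 3, jejunum crypt 2 or 3 or any LGR5 library, 0.055 to 0.132) and CD166 cells (-1.46 ± 0.33, adjusted p = 0.00772). Nr1d2 (REV-ERB beta) ranged over 27.8 to 145 CPM in crypt, the top being jejunum crypt 2, and 32.6 to 63.7 CPM in sorted libraries, and did not pass. Without ileum crypt 1 and jejunum crypt 2 together it was higher in LGR5 cells (0.77 ± 0.20, adjusted p = 0.0134). Of 13 other tested clock genes, Per1 was higher (0.68 and 0.46) and Hlf lower (-1.81 and -1.96) in both, Cry2 lower in LGR5 (-1.06) and Bhlhe40 in CD166 cells (-0.67). The labels give no time of day. The orphan receptors Nr2c1, Nr2c2, Nr2f2, Nr2f6, Nr5a2 and Nr6a1 had log2 differences between -0.36 and 0.77 and none was called (0 with an unadjusted p under 0.05, edgeR). Nr5a2 (LRH-1), a crypt proliferation factor, stood at 8.09 CPM in jejunum crypt 2 and at 38.3 to 64.5 CPM in the other 13 libraries.

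No receptor passed the test between the sorted populations. CD166 against LGR5 cells gave 0 called members in edgeR (2 with an unadjusted p under 0.05; DESeq2 called 1, Esr1, and limma-voom 0), with 1.61% of all genes called. Esr1 had the lowest p, at log2 -3.02 ± 0.81 (adjusted p = 0.129), and its 4 CD166 libraries lay below all 4 LGR5 libraries. Esr1 was called without ileum crypt 1 and jejunum crypt 2 (-3.02 ± 0.52, adjusted p = 0.00749). It passed the count filter through LGR5 libraries, the side where it is high, which bears on these p-values. In the same comparison Paneth cell genes were higher in CD166 cells (3 of 5) and so were enteroendocrine genes (7 of 8). Summed levels of Paneth genes ran from 26170 to 46380 CPM in CD166 against 4390 to 7366 CPM in LGR5 libraries.

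Between the regions, ileum held more Pgr, Esrrb and Nr3c2 and less Nr1i3 and Rarb than jejunum. Over the 3 populations 5 of 37 tested members were called, 3 higher and 2 lower in ileum, against 5.01% of all genes. Among these, Pgr, Esrrb and Rarb passed the count filter only through the region where they are high. Neither this count nor those that follow can therefore be read as an excess over the share of all genes. The median difference of the members was -0.13, against -0.01 over all genes. Without ileum crypt 3, singled out by its likeness to jejunum, 8 members were called against 8.61% of all genes, with Rarg, Nr1h3 and Hnf4g added. Leaving out ileum crypt 1 with jejunum crypt 2 gave 7, against 8.54% of all genes. Of the 5 calls, Nr1i3 and Pgr held with each library left out in turn. For Pgr this adds nothing to the counts, since it was tested only because its ileal counts are high.

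**Figure D5:**
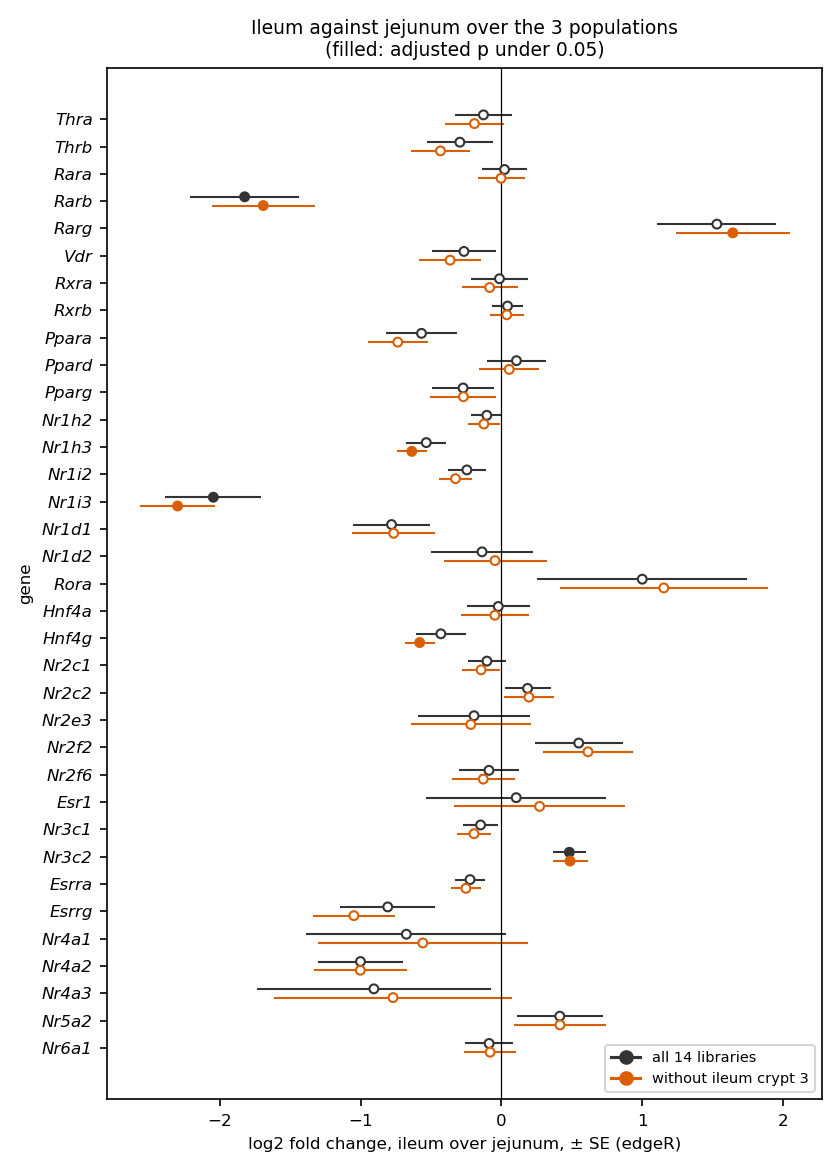
Points give the log2 fold change of ileum over jejunum across the 3 populations for 35 tested receptor genes with all 14 libraries (dark) and without ileum crypt 3 (orange), bars the SE and filled points an adjusted p under 0.05; Pgr and Esrrb are left out as nearly absent in jejunum. Nr1i3 lies at -2.05 and Rarb at -1.82, and Nr1h3, Hnf4g and Rarg are filled only without ileum crypt 3.

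Nr1i3 was 4.13-fold lower in ileum (log2 -2.05 ± 0.34, adjusted p = 0.0101), and -2.30 ± 0.27 without ileum crypt 3 (adjusted p = 0.000614). In each population every ileal library lay below every jejunal one, by the values above, with ileum crypt 3 (65.1 CPM) next to jejunum crypt 1 (67.3 CPM). Its exons overlap those of Tomm40l on the other strand, and use of strand in counting is not given in the sources used here. Tomm40l itself differed by -0.21 ± 0.14 between regions (adjusted p = 0.517). Nr1i2 did not pass (-0.25 ± 0.14, adjusted p = 0.406). Of 13 PXR and CAR targets 6 were lower in ileum, among them Cyp3a11 (log2 -3.47 ± 0.76), Ces2a (-1.07) and Gsta1 (-3.12). The drug exporter Abcb1a was the exception, at 1.24 ± 0.13 higher (adjusted p = 0.00238). Enterocyte genes were also lower in ileum in 6 of 10 cases (1 higher), and the part of enterocyte content in the Nr1i3 difference was not tested.

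Rarb, the receptor whose promoter is printed above, was a low transcript and 3.54-fold lower in ileum (log2 -1.82 ± 0.39, adjusted p = 0.0224). Ileal libraries held 0.342, 0.452 and 0.114 CPM (crypt), 0.276 and 0.323 (LGR5) and 0.185 and 0.191 CPM (CD166). Jejunal libraries held 0.367, 0.719 and 0.872 (crypt), 1.31 and 1.56 (LGR5) and 0.865 and 0.819 CPM (CD166). The sorted libraries of the regions did not overlap, and ileum crypt 2 lay above jejunum crypt 1. The difference rests on 18 counts in all 7 ileal libraries and 78 in all 7 jejunal ones, a pooled ratio of 3.68 for jejunum over ileum. Rarb passed the count filter through jejunal libraries alone, which bears on its adjusted p in the same way as for Pgr and Esrrb. The call was lost without jejunum crypt 3 or any 1 sorted library (adjusted p 0.0516 to 0.0869). Top2b, whose exons overlap Rarb on the other strand, had 114 to 182 CPM and did not pass (adjusted p = 1). Rarg went the opposite way at 1.53 ± 0.42 (adjusted p = 0.0653). In LGR5 cells ileum held 5.70 and 3.56 CPM and jejunum 0.119 and 0.655 CPM. Without ileum crypt 3 it was called at 1.64 ± 0.40 (adjusted p = 0.0313). Of 11 tested retinoid pathway genes 3 were lower in ileum and none higher (5 with an unadjusted p under 0.05, edgeR): Rbp2, the intracellular retinol carrier (log2 -3.16), Dgat1 (-1.09) and Rdh7 (-2.69).

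Pgr, the progesterone receptor, and Esrrb, a pluripotency factor in embryonic stem cells, were near the floor of detection and found almost only in ileum. Both passed the count filter through ileal libraries alone, so a regional difference was a condition of their being tested, and their adjusted p-values add nothing to the counts. Pgr stood at 0.572 to 2.42 CPM in the 7 ileal libraries, and in jejunum at 0.218 CPM (crypt 3), 0.0689 CPM (CD166 1) and 0 in the other 5. Pooled, 90 ileal and 5 jejunal counts gave a ratio of 21.2 (exact 95% interval 8.75 to 66.8, counting error only). The regions did not overlap (adjusted p = 0.00872). Esrrb stood at 0.114, 0.452 and 0 CPM in ileum crypt, 3.03 and 0.646 in ileum LGR5 and 0.739 and 1.02 CPM in ileum CD166, and at 0 in all 7 jejunal libraries. With 67 ileal counts it was 26.3-fold above the 3 counts that 0 allows over the jejunal group, and the exact 95% interval of the ratio began at 20.8 (adjusted p = 0.0305). Ileum LGR5 1 gave 33 of these counts, and without it the values were 15.8-fold and 12.1. The Esrrb call was lost without ileum crypt 2 or any 1 sorted library (adjusted p 0.0556 to 0.111).

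Nr3c2 was higher in ileum in LGR5 cells, with 40.1 and 57.0 CPM against 17.9 and 21.2 CPM in jejunum, 2.48-fold (log2 1.31 ± 0.22, adjusted p = 0.0374). It was the 1 member called within LGR5 cells, where 0.698% of all genes were called. Crypt cells held 41.3, 34.6 and 36.9 CPM in ileum and 34.8, 40.4 and 39.1 CPM in jejunum, which overlap, and CD166 cells 26.0 and 22.8 against 24.7 and 19.02 CPM. Over the 3 populations it was 1.40-fold higher (log2 0.48 ± 0.12, adjusted p = 0.0359), a call that held only without ileum crypt 3, jejunum crypt 2 or ileum LGR5 1 among the libraries left out in turn (0.0505 to 0.138 without any other). The test of whether the regional difference varies between populations gave an adjusted p of 0.664 for Nr3c2 in edgeR, while DESeq2 called it. That test called 0 members in edgeR (2 with an unadjusted p under 0.05, Nr3c2 and Rarg; DESeq2 1, limma-voom 0) and 0.0136% of all genes. The call within LGR5 cells rests on 2 libraries a side and was lost without ileum crypt 1, jejunum crypt 3, any CD166 library (0.0542 to 0.0687), ileum LGR5 2 (1.03, adjusted p = 0.295) or either jejunum LGR5 library (0.327 and 0.424). Ileum LGR5 2, the library with the most Nr3c2, also held 23140 CPM summed over 6 goblet genes. The other LGR5 libraries held 2020 to 8226 CPM of these. Its 10 stem cell markers summed to 9688 CPM, against 17260 to 20560 CPM in the other LGR5 libraries. The part of cell content in the Nr3c2 difference was not tested. Among corticosteroid targets 1 of 12 was called between regions, Hsd11b2 (log2 2.01 ± 0.37, adjusted p = 0.014, edgeR). It is the enzyme that keeps cortisol-like hormones from this receptor. It stood at 80.3 and 159.6 CPM in ileum LGR5 against 14.3 and 13.6 CPM in jejunum LGR5 libraries. The list did not share that direction within LGR5 cells, where 4 of 12 had a positive difference, the median was -0.33 and none was called (3 with an unadjusted p under 0.05, edgeR).

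Within crypt cells 0 members and 0% of all genes were called in edgeR (3 members with an unadjusted p under 0.05: Nr1i3, Pgr and Esrra; DESeq2 called 1, Nr1i3, and limma-voom 0). Without ileum crypt 3, 4.17% of all genes were called, with Nr1i3 (log2 -2.39 ± 0.44, adjusted p = 0.0162) and Hnf4g (-0.90 ± 0.17, adjusted p = 0.0207) among them. Hnf4g then compares 289.7 and 237.7 CPM in ileum with 435 to 537 CPM in jejunum. Within CD166 cells 0 members and 0.0203% of all genes were called (6 members with an unadjusted p under 0.05, DESeq2 0, limma-voom 0). Nr4a2, for example, stood at 15.7 and 16.6 CPM in ileum and 39.2 and 36.2 CPM in jejunum there (log2 -1.23 ± 0.55, adjusted p = 0.778), and Ppara at 11.6 and 8.99 against 25.5 and 19.5 CPM (-1.13 ± 0.47, adjusted p = 0.704). Nr1h3, over the 3 populations, was at -0.53 ± 0.14 (adjusted p = 0.0589), and -0.64 ± 0.105 without ileum crypt 3 (adjusted p = 0.00411). Of 11 LXR targets 1 was called, Scd2, higher in ileum (2.56 ± 0.37). Of 17 HNF4 targets 6 were lower in ileum and of 21 PPAR targets 3, including Apoa4 (-3.51), Sis (-1.16), Fabp1 (-3.42) and Creb3l3 (-3.22). No clock, immediate early, coregulator, vitamin D or thyroid hormone list gene was called between regions (1, 4, 2, 2 and 0 with an unadjusted p under 0.05, edgeR).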

How the data were processed

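RNA libraries (TruSeq kit) were sequenced with single-end 50-base reads, per the labels' protocols. The build mm9 and the tool DESeq are named in the submitters' processing notes, without versions or steps. No aligner, counter or annotation is stated there. For each library the authors deposited expected counts for 36401 genes (not scaled; 50.6% of values above 0 are whole within 0.001) and another file of log2 values. From the values themselves, the authors' deposited log2 values are log2 of the scaled count minus the gene's median over the libraries. Although 1 kind of file is named for RPKM, no RPKM values were found, so fits planned on RPKM were not run. Genes have no coordinates here except promoters, from RefSeq GRCm38.p6.

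Counts were rounded, filtered (filterByExpr, minimum count 10, total 15; 14750 genes kept) and scaled by TMM in edgeR 4.0.16 (R 4.3.3). A quasi-likelihood model with 1 mean per group gave all contrasts; region over populations is the mean of the 3 within-population differences. SEs were derived from the fold change and the F statistic. Adjusted p-values come from this fit. Intervals and floors (3 counts) cover counting error only. Total counts of 6295828 to 20380369 set the precision. Alternatives are listed in the closing section. The script was tested on simulated data. The members follow a rule on names that uses no measured value, but they, the gene lists and the tests were proposed with earlier results of these data known. By rule, per-library values are given for members called in any contrast or that the text turns on, and up to 4 called genes of each pathway list and 3 of each marker list are named in order of mean CPM. Lists with 5 or fewer calls may be named in full. Values of members whose exons overlap a gene on the other strand (Thra with Nr1d1, Rarb, Nr1i3, Nr2c2, Nr2f6, Nr2f2, Nr3c2, Esrra, Rora and Nr2f1) are uncertain, since strand use is not given. Protein sequences were not used here. Some genes of the pathway lists are counted but not reported here by name. Figures used matplotlib.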

Additional observations from a re-analysis of the deposited data

How the results depend on the processing

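The number of called members was recomputed under each alternative; no called member changed direction in any. Over the 3 populations 5 members were called between regions, 8 with DESeq2 and 3 with a filter of 1 CPM in 4 libraries, which removed Rarb and Esrrb before testing; leaving out 1 library at a time gave 2 to 8. Within crypt the count of 0 became 1 with DESeq2 and 2 without ileum crypt 3 and jejunum crypt 1 together, with 0 to 2 when leaving out 1 library. Within LGR5 cells the count of 1 became 4 with DESeq2, 0 with limma-voom, 2 with limma on the deposited log2 values, 6 in a fit of only the groups compared, 2 without ileum crypt 3 and jejunum crypt 1, and 0 to 2 when leaving out 1 library. Within CD166 cells the count of 0 became 1 (Pgr) on the deposited log2 values and 6 in a fit of only the groups compared; leaving out 1 library gave 0. LGR5 against crypt (12) gave 5 to 12 and CD166 against crypt (11) gave 7 to 16 when leaving out 1 library. CD166 against LGR5 (0) gave 1 with DESeq2, 2 (Esr1 and Nr4a2) in a fit of only the groups compared, and 0 to 1 when leaving out 1 library. The test of region by population (0) gave 1 (Nr3c2) with DESeq2. Leaving out ileum crypt 1 and jejunum crypt 2 together, chosen after seeing the data, gave 3 within LGR5 cells (3.73% of all genes), 17 of 37 for CD166 against crypt, near the 39.2% of all genes, and 1 (Esr1) for CD166 against LGR5 (2.81%). The cause of these changes was not tested. A fit of only the groups compared was not run for region over the populations or for the interaction, where it is the same fit. Over all genes the region calls (739) were 1376 with DESeq2 and 138 to 1269 leaving out 1 library. Within LGR5 cells (103) they were 753 with DESeq2, 30 with limma-voom, 1574 in a fit of only the groups compared and 2 to 376 leaving out 1 library. Within CD166 cells (3) they were 186, 48 and 571 with these fits, and within crypt (0) 317 with DESeq2 and up to 614 leaving out 1 library. CD166 against LGR5 (238) gave 406 with DESeq2, 575 in a fit of only the groups compared and as few as 85 leaving out 1 library. The lowest counts leaving out 1 library were 2421 for LGR5 (4639) and 2769 for CD166 against crypt (4439). The interaction (2) gave 70 with DESeq2.

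Whether replicate numbers pair the samples cannot be told from these values. Over 31 pairs of libraries with the same number the correlation of deviations from the group mean ran from -0.495 to 0.405 (median -0.013). In groups of 2 libraries the deviations mirror each other, so their correlations come with opposite signs. A median near 0 therefore cannot exclude pairing. With a replicate block 6 members were called between regions (6.26% of all genes; Rarg and Nr1h3 gained, Nr3c2 lost), 2 within LGR5 cells (1.72%; Nr1i3 gained), 10 for LGR5 against crypt (26.4%; Rxra and Nr1d1 lost), 10 for CD166 against crypt (24.7%; Esrrg and Nr4a3 gained, Nr3c1, Nr4a1 and Nr4a2 lost) and 0 in the other comparisons. Depth limits members under 1 CPM, such as Rarb, Pgr and Esrrb, whose calls rest on few counts.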
